A study of Mus musculus with 10 samples.

Results

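The enzymes that carry acetyl-CoA to squalene epoxide, the first part of cholesterol synthesis, were followed in the spinal cord of C57BL/6 mice at 8 and 4 weeks of age. The 9 genes, Acat2, Hmgcs1, Mvk, Pmvk, Mvd, Idi1, Fdps, Fdft1 and Sqle, were chosen by name and found by Entrez Gene identifier among 26301 genes counted, and 8 of them had counts. RNA sequencing gave 10 libraries, 3 male and 3 female at 8 weeks and 2 male and 2 female at 4 weeks. C57BL/6 is a common inbred laboratory strain, and the labels name no treatment and no altered allele. Replicates carry a number in the labels but no statement on separate animals, and the p-values therefore reflect the spread among these libraries alone, part or all of which may be technical.

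Cholesterol in the cord is made on site, because plasma lipoproteins do not cross the barrier between blood and nervous tissue. Oligodendrocytes, the glia that wrap axons in myelin, use much of it, and astrocytes and young neurons make it as well. Acetyl units are joined to HMG-CoA by Acat2 and Hmgcs1, which is then reduced to mevalonate, Mvk, Pmvk and Mvd turn mevalonate into an isoprene unit, Idi1 and Fdps build farnesyl diphosphate from such units, Fdft1 joins a pair of farnesyl chains into squalene, and Sqle adds the oxygen from which the sterol rings are closed. When sterol in the endoplasmic reticulum is low, the transcription factor SREBP2 is released and raises these genes together.

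Promoters of the enzymes are shown because these are the stretches in which the known sites of SREBP2 and of its partner NF-Y lie. Whether such sites bear on the age difference was not tested. RefSeq (assembly GRCm38.p6) held promoters for 6 of the 9 genes, and those of Fdps, Fdft1 and Sqle are named only. The 250 bases before the start were searched on both strands for the classic sterol regulatory element of 10 letters, for its shorter forms TCACNCCAC and CACCCCAC, which can overlap each other, for the NF-Y box CCAAT and for the Sp1 box GGGCGG. The 150 bases before the start of 5 of them follow, 5′ to 3′ along the gene's strand, with CCAAT, TCACNCCAC and CACCCCAC on either strand in capitals.
Hmgcs1 (chr13:119690201-119690350, plus strand): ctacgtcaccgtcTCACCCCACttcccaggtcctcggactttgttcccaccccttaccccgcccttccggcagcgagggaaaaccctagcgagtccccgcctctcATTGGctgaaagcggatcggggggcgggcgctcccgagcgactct
Mvk (chr5:114444119-114444268, plus strand): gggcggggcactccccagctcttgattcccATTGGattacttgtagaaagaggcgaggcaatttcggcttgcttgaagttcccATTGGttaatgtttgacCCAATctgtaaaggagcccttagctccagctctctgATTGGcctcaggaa
Mvd (chr8:122443423-122443572, minus strand): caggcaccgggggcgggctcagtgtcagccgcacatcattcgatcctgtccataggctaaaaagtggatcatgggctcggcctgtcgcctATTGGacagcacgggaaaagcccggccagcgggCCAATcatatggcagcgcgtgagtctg
Idi1 (chr13:8885456-8885605, plus strand): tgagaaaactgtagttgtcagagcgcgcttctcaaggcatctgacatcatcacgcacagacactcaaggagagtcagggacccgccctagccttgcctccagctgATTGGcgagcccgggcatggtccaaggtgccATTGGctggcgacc
Acat2 (chr17:12960726-12960875, minus strand): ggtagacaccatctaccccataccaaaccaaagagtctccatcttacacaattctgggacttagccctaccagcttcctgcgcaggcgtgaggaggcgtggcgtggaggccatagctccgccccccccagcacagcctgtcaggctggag

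The box CCAAT stood in 5 of the 6 genes with a promoter, Hmgcs1, Mvk, Pmvk, Mvd and Idi1, and in 33.8% of all 32851 promoters of the table. A gene was counted if any of its promoters held the sequence, and the 6 genes had 7 promoters. The percentages are over single promoters, so the units differ. Mvk held 4 copies in the stretch printed. Hmgcs1, the HMG-CoA synthase, held TCACNCCAC 137 bases before its start, a sequence found in 1.05% of all promoters. It was the 1 gene of the 6 to hold it, and it had 0 counts in every library. Acat2, the thiolase that opens the pathway, held no CCAAT in the 250 bases and 1 copy of CACCCCAC 181 bases before its start, outside the stretch printed. CACCCCAC stood in 2.58% of all promoters and was in 2 of the 6 genes. The element of 10 letters stood in 0.0731% of all promoters and in 0 of the 6 genes. GGGCGG stood in 5 of the 6 genes and in 32.7% of all promoters. CCAAT and GGGCGG also stood in 2 neighbour genes, Tcp1 beside Acat2 and Mmab beside Mvk, neither of which passed the age test below. The promoters of Mvk and Mmab overlap on opposite strands, and their CCAAT boxes are the same sites. Among enzymes after squalene epoxide, both boxes stood in all 10 with a promoter, which had 12 promoters. Each match is a stretch of letters and not a measured site.

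Libraries held between 8453559 and 11594610 counts, and between 18407 and 18884 genes had a count in each. Levels are given as CPM, the usual count scaled to the size of its library, with TMM factors unless stated otherwise. The tissue label was checked against markers. The posterior Hox genes Hoxc8, Hoxa7, Hoxb8 and Hoxc6 summed to 311 to 332 CPM of total counts in 8-week and 262 to 298 in 4-week libraries. Transcripts of tissues outside the cord were present in some libraries. The 12 skeletal muscle genes summed to 39.7 to 155 CPM at 8 weeks and 506 to 2050 CPM at 4 weeks, highest in male 4-week library 1. The 8 adrenal cortex genes summed to 133 and 96.5 CPM in male 4-week libraries 1 and 2 and at most 11.4 CPM in the other 8 libraries. The 7 lung genes summed to 865 and 101 CPM in male 8-week libraries 2 and 3 and at most 9.61 CPM elsewhere.

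Of the 8 counted enzymes 7 were lower at 8 weeks than at 4 weeks, by 17.3% to 35.8%, and Fdft1 did not pass the test. The largest estimates were those of Idi1, Mvd, Fdps and Sqle. None of the 8 was called higher. Among all 15540 genes tested, 5.01% were called lower, 1.61% higher and 6.62% in either direction, at a Benjamini-Hochberg adjusted p under 0.05 in the quasi-likelihood test of edgeR with sex and age in the model. The median log2 fold change of the 8 enzymes was −0.49, and that of all genes was 0.01. In 6 of the 8, every 8-week library lay below every 4-week library, which held for 4.84% of all genes, and in 0 of the 8 every one lay above, which held for 2.89%. Fold changes are on the log2 scale, 8 weeks over 4 weeks, with their standard error (SE). In bulk tissue, fewer cells of a type and less RNA per cell cannot be told apart.

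**Figure D1:**
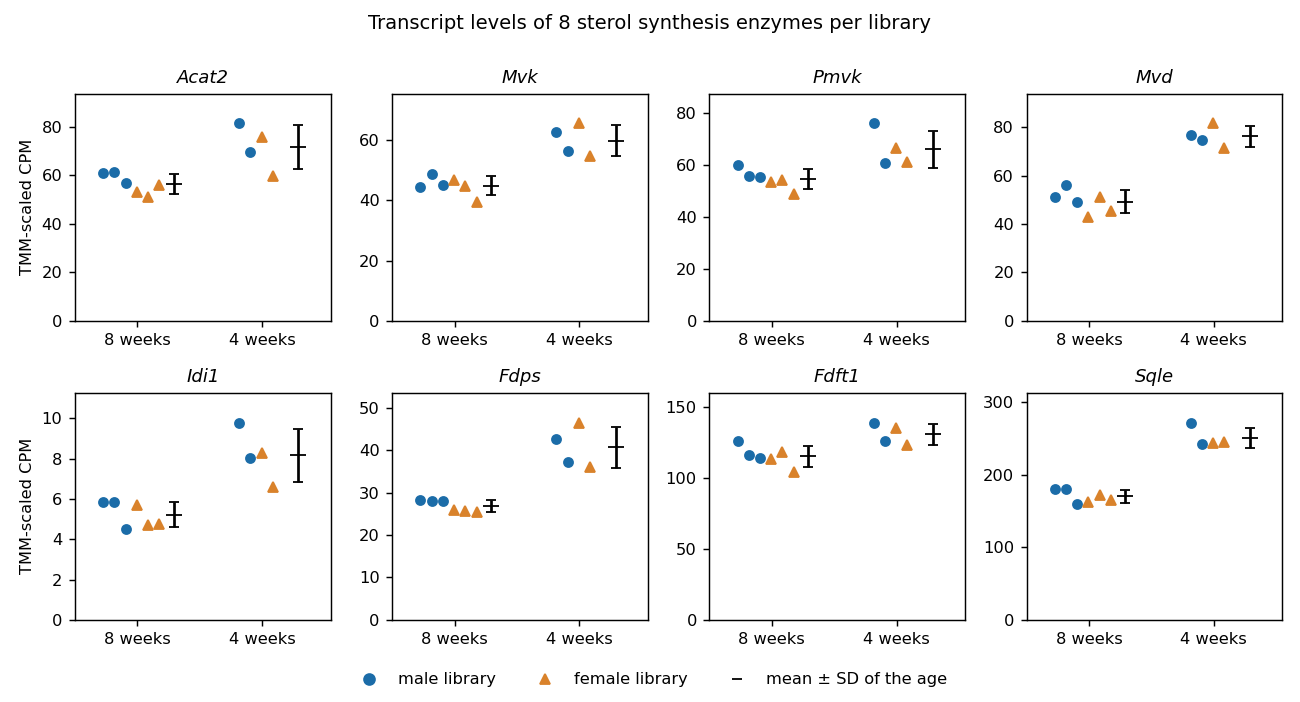
Level of each counted enzyme in each library in TMM-scaled CPM, 8-week libraries left of 4-week libraries, with circles for male and triangles for female libraries and the mean ± SD of each age beside them. In all panels except Acat2 and Fdft1 the 8-week points lie below every 4-week point.

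The 7 calls depended on which libraries were kept. With male 8-week libraries 2 and 3, the pair with lung transcripts, left out, 4 of the 8 enzymes were called lower. With the pair of male 4-week libraries, where adrenal transcripts stood, left out, 4 were called again, on an age difference measured in females. Mvk, Mvd, Fdps and Sqle kept their call in both cases, while Acat2, Idi1 and Pmvk did not, at edgeR adjusted p values between 0.0739 and 0.203. Their estimates without the 8-week pair and without the 4-week pair were −0.33 and −0.35 for Acat2, −0.57 and −0.55 for Idi1 and −0.25 and −0.29 for Pmvk. The median change of the 8 was −0.49 and −0.51 in these settings, against −0.49 with all libraries. Calls over all genes fell too, to 474 and 393, against 1028 with all libraries. With the skeletal muscle score as a covariate, the mean centred log2 CPM of the 12 muscle genes, 0 of the 8 passed, the median change was −0.20, and the median SE of the enzymes was 2.33 times as large. Of all genes 88 were then called. Sqle stood at −0.32 (edgeR adjusted p = 0.178) and Mvd at −0.44 (edgeR adjusted p = 0.194) in that fit. That score lay between −2.37 and −0.62 in 8-week libraries and between 1.19 and 3.19 in 4-week libraries, so that it and age cannot be told apart.

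Acat2 (Entrez Gene 110460), the cytosolic acetoacetyl-CoA thiolase, had 50.8 to 61.2 CPM with a median of 56.4 in the 6 libraries of 8 weeks, against 81.3, 69.7, 75.7 and 59.8 CPM in the libraries of 4 weeks. The ages overlapped, because female 4-week library 2 lay below male 8-week libraries 1 and 2. The change was −0.34 (SE 0.07, edgeR adjusted p = 0.00999), with a mean of 56.4 ± 4.13 CPM (SD, n = 6) at 8 weeks and 71.6 ± 9.19 CPM (SD, n = 4) at 4 weeks. Of the 50-base windows of its annotated transcripts, 39.1% also occur in transcripts of Acat3, a near copy next to it, so its counts are uncertain. Acat3 itself had 70 counts over all 10 libraries. Tcp1, a chaperonin gene that shares 11.2% of the Acat2 windows, had a change of −0.03 (SE 0.06, edgeR adjusted p = 0.818).

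Hmgcs1 (Entrez Gene 208715), the cytosolic HMG-CoA synthase, had 0 counts in every library and could not be followed. A count of 0 allows up to 3 counts, or 0.259 to 0.355 CPM at these depths, for counting error only. In RefSeq gene order it lay in a run of 8 protein-coding genes with 0 counts in all 10 libraries, among them its neighbours Ccl28, Nim1k and Zfp131. The gene just before the run, Tmem267, had 1199 counts over the libraries. Whether reads could be assigned in this run is not given in the sources used here, and the 0 is therefore not read as a level.

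The 3 enzymes that turn mevalonate into the isoprene unit were all called lower, by unequal estimates. Mvk (Entrez Gene 17855), mevalonate kinase, had 39.4 to 48.7 CPM with a median of 44.9 at 8 weeks, against 62.6, 56.5, 65.6 and 54.8 CPM at 4 weeks. No library of 8 weeks reached the lowest of 4 weeks. Its change was −0.41 (SE 0.07, edgeR adjusted p = 0.00294), with a mean of 44.9 ± 3.12 CPM (SD, n = 6) at 8 weeks and 59.9 ± 5.09 CPM (SD, n = 4) at 4 weeks. Mmab, a cobalamin enzyme gene that starts beside Mvk on the opposite strand, had a change of 0.01 (SE 0.09, edgeR adjusted p = 0.968).

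Pmvk (Entrez Gene 68603), phosphomevalonate kinase, had 48.6 to 60.0 CPM with a median of 54.7 at 8 weeks, against 75.9, 60.7, 66.3 and 61.1 CPM at 4 weeks. The ages were apart by less than 1 CPM, with male 8-week library 1 at 60.0 and male 4-week library 2 at 60.7 CPM. A change of −0.27 (SE 0.07, edgeR adjusted p = 0.0292) made it the smallest of the 7 that were called. The call of Pmvk ended without male 4-week library 1, female 4-week library 1 or 2, male 8-week library 2 or 3, or female 8-week library 1 or 3, at adjusted p values between 0.0543 and 0.121.

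Mvd (Entrez Gene 192156), the decarboxylase that ends this stage, had 51.0, 56.1 and 49.0 CPM in male and 43.0, 51.1 and 45.3 CPM in female 8-week libraries, against 76.9 and 74.9 CPM in male and 81.6 and 71.5 CPM in female 4-week libraries. The gap between the highest 8-week and the lowest 4-week library was larger than the spread within either age. Mvd fell by 35.4%, a change of −0.63 (SE 0.07, edgeR adjusted p = 9.23e-05), with a mean of 49.3 ± 4.67 CPM (SD, n = 6) at 8 weeks and 76.2 ± 4.21 CPM (SD, n = 4) at 4 weeks. None of its annotated 50-base windows, and none of those of Pmvk, occurred in another gene's transcripts.

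In the chain-building stage Idi1 and Fdps had similar estimates at different precision. Idi1 (Entrez Gene 319554), the isomerase that makes the reactive isoprene unit, had 4.49 to 5.85 CPM with a median of 5.23 at 8 weeks, against 9.80, 8.02, 8.29 and 6.60 CPM at 4 weeks. These are 45 to 56 counts per library at 8 weeks and 66 to 92 counts at 4 weeks, so counting error weighs more here than for the other enzymes. The ages did not overlap, and the change was −0.64 (SE 0.13, edgeR adjusted p = 0.0101). Of the Idi1 windows 25.3% occur in transcripts of other genes.

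Fdps (Entrez Gene 110196), farnesyl diphosphate synthase, had 28.3, 28.0 and 27.9 CPM in male and 25.8, 25.7 and 25.4 CPM in female 8-week libraries, against 42.7 and 37.3 CPM in male and 46.5 and 36.1 CPM in female 4-week libraries. The 8-week libraries were close together and all below the 4-week libraries, which spread over 10 CPM. Fdps fell by 33.8%, a change of −0.60 (SE 0.08, edgeR adjusted p = 0.000432), with a mean of 26.9 ± 1.34 CPM (SD, n = 6) at 8 weeks and 40.6 ± 4.84 CPM (SD, n = 4) at 4 weeks. Transcripts of other genes hold 26.2% of its windows, and reads of such copies could have been split or dropped in counting.

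The step into squalene differed in estimate from the step after it. Fdft1 (Entrez Gene 14137), squalene synthase, had 104 to 126 CPM with a median of 115 at 8 weeks, against 139, 126, 135 and 123 CPM at 4 weeks. The ages overlapped through male 8-week library 1, and the change of −0.18 (SE 0.06, edgeR adjusted p = 0.0800) did not pass. Without male 4-week library 2 it passed, at adjusted p = 0.0428. The end of Fdft1 overlaps that of Ctsb, a lysosomal protease gene on the opposite strand, which holds 17.2% of the Fdft1 windows, and the strand setting of the counting is not given in the sources used here. Ctsb lay between 821 and 940 CPM in all libraries, with a change of 0.03 (SE 0.05, edgeR adjusted p = 0.816).

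Sqle (Entrez Gene 20775), squalene epoxidase, had the most counts of the 8. It had 180, 181 and 160 CPM in male and 163, 172 and 165 CPM in female 8-week libraries, against 272 and 243 CPM in male and 244 and 245 CPM in female 4-week libraries. All 6 of the 8-week libraries lay more than 60 CPM below the lowest 4-week library. Sqle fell by 32.3%, a change of −0.56 (SE 0.05, edgeR adjusted p = 2.13e-05), with a mean of 170 ± 8.99 CPM (SD, n = 6) at 8 weeks and 251 ± 14.2 CPM (SD, n = 4) at 4 weeks. Its windows were shared with other genes in 0.0358% of cases.

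Within a library, the counts of most enzymes were lower relative to Fdft1 at 8 weeks. This ratio does not depend on the scaling between libraries. Mvk, Mvd, Idi1, Fdps and Sqle, 5 of the 7, had a ratio to Fdft1 that was lower in every 8-week than in every 4-week library, which held for 1.93% of the other tested genes. For each Fdft1 count there were 1.40 to 1.59 Sqle counts at 8 weeks, against 1.80 to 2.0 at 4 weeks. The ratio of Mvd to Fdft1 was 0.380 to 0.486 at 8 weeks, against 0.554 to 0.604 at 4 weeks, and that of Fdps 0.217 to 0.244 at 8 weeks, against 0.294 to 0.344 at 4 weeks. Those of Acat2 and Pmvk overlapped between the ages. Fdft1 had the smallest change of the 8, so ratios to it largely restate the fold changes of the others. Of all 28 pairs of enzymes, 13 had ratios that did not overlap between the ages in either direction. Of these, 5 were with Fdft1 and 2 to 4 with each other enzyme. The same count over pairs of other genes was not made, so 13 of 28 is a description only.

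**Figure D2:**
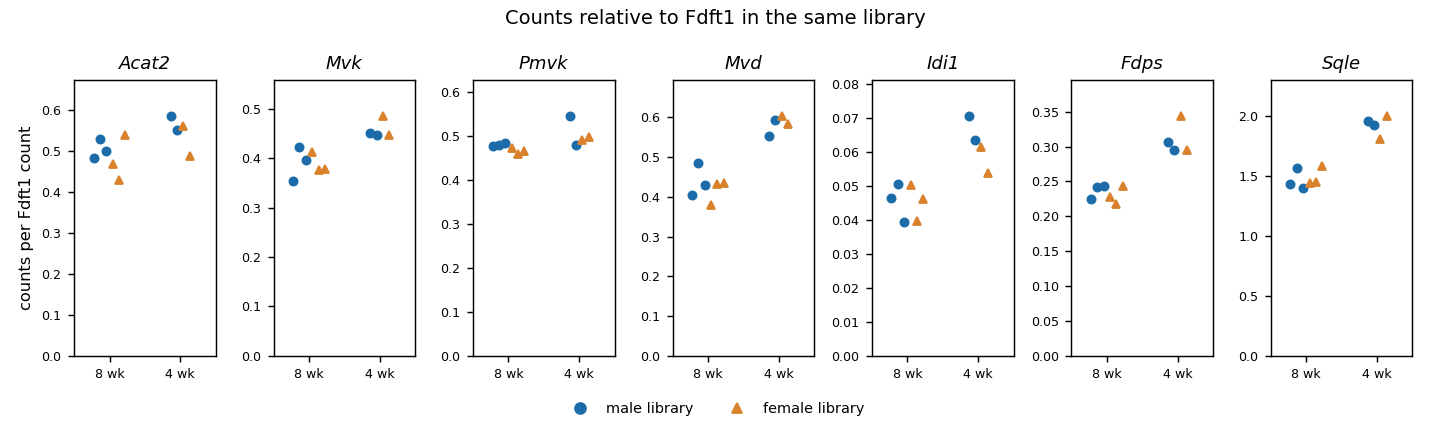
Counts of each enzyme divided by the Fdft1 counts of the same library, 8-week libraries left of 4-week libraries, 1 point per library, circles for male and triangles for female. Mvk, Mvd, Idi1, Fdps and Sqle show no overlap between the ages.

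Per kilobase of annotated exon, from GENCODE M21 lengths that may differ from those used in counting, Pmvk and Sqle had the highest levels at 8 weeks, with 31.8 ± 2.16 and 30.7 ± 1.62 CPM per kilobase (SD, n = 6). Fdft1 with 27.3 ± 1.69 and Mvd with 26.5 ± 2.51 CPM per kilobase came next, and neither of these pairs differed beyond its spread. Acat2 with 22.2 ± 1.62 and Mvk with 16.8 ± 1.17 CPM per kilobase followed, and Fdps with 6.38 ± 0.319 and Idi1 with 1.49 ± 0.179 CPM per kilobase were lowest. At 4 weeks Sqle led with 45.3 ± 2.56 CPM per kilobase (SD, n = 4), before Mvd with 41.0 ± 2.26 and Pmvk with 38.5 ± 4.12 CPM per kilobase, which overlap in their spread. The share of windows found in other genes was 26.2% for Fdps and 25.3% for Idi1. It was 26.5% for Fdft1 and 39.1% for Acat2, whose levels were higher. Whether shared windows lowered any of these levels was not tested.

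The 8 enzymes were also set side by side over the 10 libraries. Each was expressed as log2 CPM minus its own mean over the libraries, and the mean of the 8 gave a score per library. The score lay between −0.29 and −0.08 at 8 weeks, with a median of −0.21, and between 0.13 and 0.40 at 4 weeks, with a median of 0.28. Male 4-week library 1 was highest at 0.40 and female 4-week library 2 lowest of the 4-week libraries at 0.13. In 5 of the 6 libraries of 8 weeks all 8 enzymes lay below their own mean, and in male 8-week library 1 6 of them did. In 3 of the 4 libraries of 4 weeks none lay below it, and in female 4-week library 2 Acat2 did. Because each mean spans both ages, these counts largely restate the age difference, and they were not made over all genes. Mvk stayed closest to the score, with a root mean square difference of 0.0632, and Fdft1 and Idi1 were farthest, at 0.140 and 0.138 (log2).

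**Figure D3:**
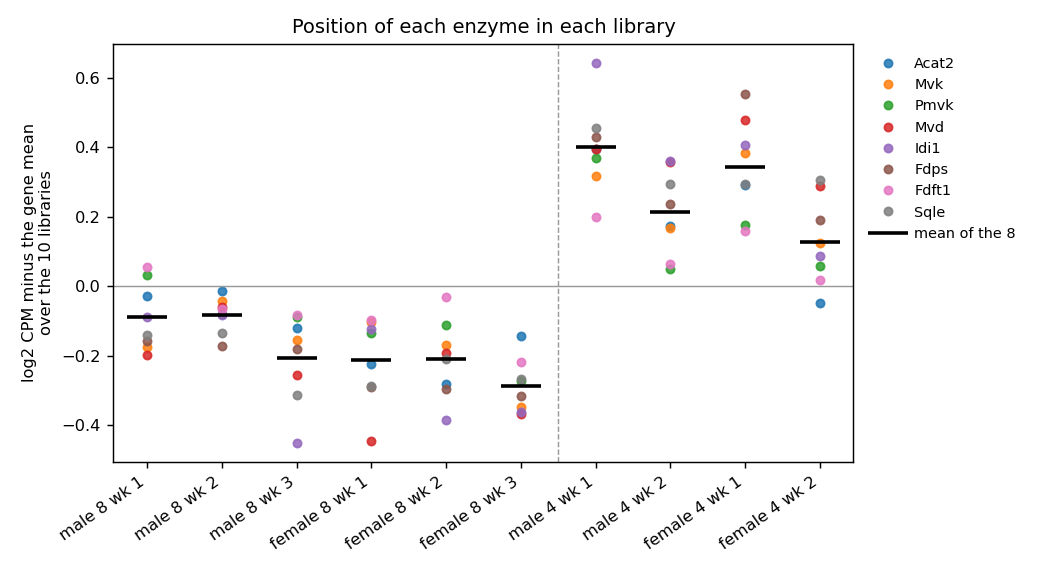
Log2 CPM of each enzyme minus its mean over the 10 libraries, 1 column per library with 8-week libraries on the left, coloured points for the enzymes and black bars for the mean of the 8. The black bars lie between −0.29 and −0.08 at 8 weeks and between 0.13 and 0.40 at 4 weeks.

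The other 13947 genes with a mean of at least 1 log2 CPM were ranked by their likeness to the score. Npc2, a cholesterol carrier of the lysosome, came first, with a root mean square difference of 0.0427 over the 10 libraries. It was followed by Pcyt2, which acts in phosphatidylethanolamine synthesis, at 0.0440. Heatr3 and Pop4, a subunit of ribonuclease P, followed at 0.0607 each, Pdlim2 at 0.0638, Hadh, a mitochondrial enzyme of fatty acid oxidation, at 0.0647, Cyb5a, the cytochrome b5 of the endoplasmic reticulum, at 0.0680 and Msmo1, a sterol methyl oxidase, at 0.0729. Npc2 had a change of −0.44 (SE 0.06, edgeR adjusted p = 0.000668) and Pcyt2 one of −0.42 (SE 0.05, edgeR adjusted p = 0.000247). Npc2, Pcyt2, Heatr3 and Pop4 lay closer to the score than Mvk, the nearest enzyme, at 0.0632. Apart from Msmo1, the enzymes after squalene epoxide ranked between 37 (Cyp51) and 2444 (Lss). The genes of nearest course were picked for their likeness and their changes are given as a description.

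The later enzymes of the pathway, from squalene epoxide to cholesterol, were lower as well, with 10 of 11 called lower, 1 not passed and a median change of −0.40. Cyp51, the lanosterol demethylase, changed by −0.54 (SE 0.05, edgeR adjusted p = 1.79e-05) and Dhcr7, which makes cholesterol from its last precursor, by −0.38 (SE 0.05, edgeR adjusted p = 0.000187). Nsdhl was the one that did not pass, at −0.23 (SE 0.08, edgeR adjusted p = 0.0924).

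Genes that control the pathway were looked at as well, and the 3 given here did not pass the test. Srebf2, which encodes SREBP2, had a change of −0.04 (SE 0.06, edgeR adjusted p = 0.778), and Insig1, the sterol-dependent anchor of SREBP, one of −0.02 (SE 0.06, edgeR adjusted p = 0.882). Srebf1, which acts more on fatty acid genes, stood at 0.19 (SE 0.06, edgeR adjusted p = 0.0851). Transcript levels of Srebf2 do not measure the cleaved, active protein.

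**Figure D4:**
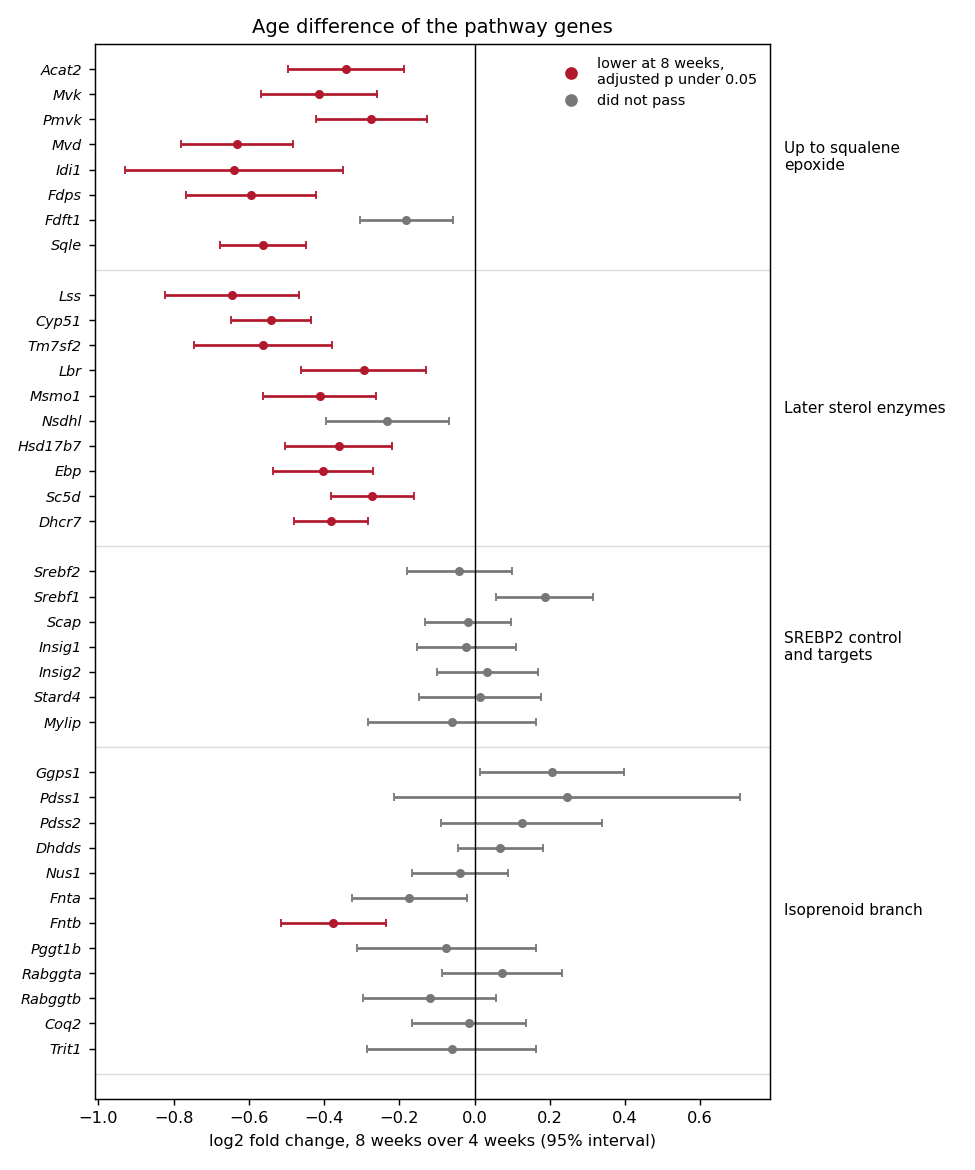
Log2 fold change, 8 weeks over 4 weeks, of each gene drawn from 4 groups with its 95% interval, red where the gene was called lower and grey where it did not pass. In the upper groups 7 of 8 enzymes up to squalene epoxide and 9 of the 10 later enzymes drawn are red, and in the lower groups Fntb is.

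Markers of myelinating cells moved with the enzymes, and their part in the result was not tested. Of 12 genes of mature oligodendrocytes and myelin 10 fell and 2 did not pass, none was at 0, and they summed to 39500 to 45900 CPM of total counts at 8 weeks and 61500 to 66500 CPM at 4 weeks. The 9 genes of newly forming oligodendrocytes divided into 6 that fell, 1 that rose and 2 that did not pass, while their sum lay between 1180 and 1280 CPM at 8 weeks and between 1180 and 1240 CPM at 4 weeks. Most of that sum was Bcas1, the gene that rose, with 963 ± 37.4 TMM-scaled CPM (SD, n = 6) at 8 weeks and 834 ± 34.3 (SD, n = 4) at 4 weeks, while 8 of the 9 genes had a negative change and the median of the list was −0.62. Of 8 astrocyte genes 1 fell and 7 did not pass, with sums of 8310 to 9880 CPM at 8 weeks and 8280 to 9390 CPM at 4 weeks. Of 6 neuron genes 1 rose and 5 did not pass, with sums of 3440 to 3570 CPM at 8 weeks and 2970 to 3120 CPM at 4 weeks. Most of that sum was Snap25, with 2795 ± 67.8 TMM-scaled CPM (SD, n = 6) at 8 weeks and 2471 ± 89.7 (SD, n = 4) at 4 weeks. None of the 6 had a negative change. Among the tissues outside the cord all 12 muscle genes, all 7 tested adrenal cortex genes and 7 of 8 fat genes fell over both sexes. The adrenal sums were high in the male 4-week libraries alone. In females 0 of the 7 adrenal genes were called, with sums of 9.94 and 9.47 CPM at 4 weeks. The fat genes summed to 7.10 to 51.3 CPM at 8 weeks and 35.5 to 289 CPM at 4 weeks. All 10 neutrophil and marrow genes fell as well, with sums of 128 to 217 CPM at 8 weeks and 218 to 621 CPM at 4 weeks. So did all 5 tested genes of cell division, with sums of 13.4 to 24.1 CPM at 8 weeks and 32.8 to 73.7 CPM at 4 weeks. Within females 0 of 8 fat, 0 of 10 neutrophil and marrow and 1 of 5 division genes were called lower. Within males 5, 8 and 3 of them were. The changes of these genes were negative in both sexes.

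Within each sex the 8 enzymes again had negative changes, and 3 of them, Mvd, Fdps and Sqle, were called lower in males and in females. In males 2.39% of all genes were called lower, 0.837% higher and 3.22% in either direction, and in females 1.22% lower, 0.238% higher and 1.45% in either direction, in a model of the 4 groups fitted to all 10 libraries. The median change of the 8 was −0.44 in males and −0.51 in females. Sqle changed by −0.57 (SE 0.07, edgeR adjusted p = 0.00208) in males and by −0.55 (SE 0.08, edgeR adjusted p = 0.00378) in females. Mvd changed by −0.55 (SE 0.10, edgeR adjusted p = 0.00958) in males and by −0.72 (SE 0.10, edgeR adjusted p = 0.00342) in females.

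Calls within a sex rest on few libraries. Without male 8-week libraries 2 and 3, which leaves a lone library assumed to vary like the other groups, 0 of the 8 enzymes were called in males, with Sqle at −0.52 (edgeR adjusted p = 0.136). Fdps changed by −0.51 (SE 0.11, edgeR adjusted p = 0.0298) in males and by −0.68 (SE 0.11, edgeR adjusted p = 0.0119) in females. In males the call of Fdps ended without male 4-week library 1, at −0.40 (adjusted p = 0.196). It also ended without any single library of 8 weeks, male or female, at adjusted p values between 0.0502 and 0.0979, while the estimate was −0.50 to −0.51. In females it ended without female 4-week library 1 (0.124) or female 8-week libraries 1 (0.0660) or 3 (0.0594). Without male 4-week library 2, 6 enzymes were called in males.

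**Figure D5:**
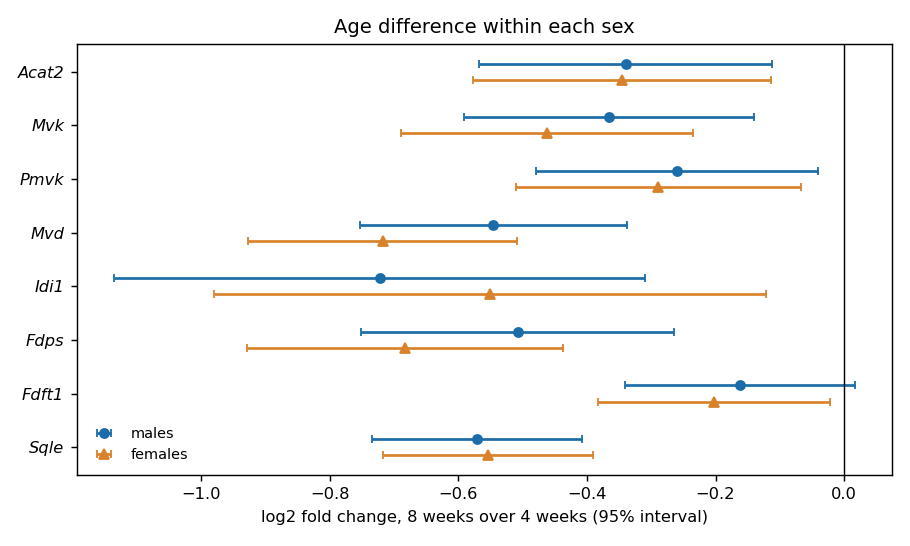
Log2 fold change, 8 weeks over 4 weeks, of each counted enzyme in males (circles) and females (triangles) with its 95% interval. The estimates are negative for all 8 in both sexes, and the intervals of the sexes overlap for each enzyme.

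Whether the age difference itself differed between the sexes was tested as an interaction, and none of the 8 passed, with edgeR adjusted p values of 0.982 or more and 0 at an unadjusted p under 0.05. DESeq2 and limma-voom called 0 of the 8 as well. Of all genes 0.0129% were called. The difference, males minus females, was −0.02 for Sqle with a 95% interval from −0.25 to 0.22, 0.17 for Mvd with −0.12 to 0.47, and −0.17 for Idi1 with −0.77 to 0.43.

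Male and female libraries were also compared over both ages. All 8 estimates were positive, with a male over female log2 fold change of 0.04 for Mvk to 0.16 for Acat2 and Idi1, and 0 of 8 passed, against 0.0644% of all genes called higher, 0.0257% lower and 0.0901% in either direction. For Acat2 the change was 0.16 (SE 0.07, edgeR adjusted p = 0.667) with a 95% interval from 0.01 to 0.31, the lone enzyme with an unadjusted p under 0.05. DESeq2 and limma-voom called 0 of the 8. For Sqle the interval ran from −0.05 to 0.18, and for Fdps from −0.12 to 0.23.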

How the data were processed

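RNA of spinal cord was extracted with Trizol and sequenced from Illumina libraries, per the labels' protocols. Each library has 1 deposited file of raw counts, reads assigned to an Entrez Gene identifier, which the authors did not normalize. TopHat2 2.1.0, featureCounts and the mouse build mm9 were used, per the submitters' processing notes; the sources used here do not give the annotation, the strand setting or the treatment of reads with several positions. Identifiers were named from RefSeq GRCm38.p6 (24191 of 26301 matched), used for names, gene order and promoters.

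The filter filterByExpr kept 15540 genes (count minimum 10, total minimum 15). They were tested with the quasi-likelihood F test of edgeR 4.0.16 (R 4.3.3, TMM scaling, two-sided), with Benjamini-Hochberg adjustment over all of them. The additive model of sex and age had 7 residual degrees of freedom and the model of the 4 groups 6. The SE is the absolute log2 fold change over the square root of F. Log2 CPM for scores used a prior count of 2. The score, planned over 9 genes, held the 8 with counts. Pairs of replicates had a chi-square over degrees of freedom of 1.95 to 11.6, and none was merged. Windows of 50 bases came from GENCODE M21 transcripts. Alternatives used DESeq2 1.42.0, limma 3.58.1, other scalings and filters, libraries left out and the muscle score. The fit was tested on simulated data.

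The 9 genes, the lists and the tests were chosen with earlier results of these data known. Named were all 9, of each other pathway list the 3 genes with the lowest p and any the biology needs, and the 8 genes of nearest course. Ctsb and the genes around Hmgcs1 were named after their values were seen. Some genes of the pathway and marker lists are not reported here.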

Additional observations from a re-analysis of the deposited data

Results flagged for a closer look

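Sqle stood at 272 CPM in male 4-week library 1, far from the other 3 libraries of 4 weeks, which lay at 243 to 245 CPM. Its distance to the nearest of them, over the range of the 4, was above the 95% critical value of Dixon's test. The same library had the highest skeletal muscle sum, at 2050 CPM of total counts. Its sums of adrenal cortex (133), neutrophil and marrow (621) and Schwann cell genes (1320) were the highest as well. Whether any of these bears on the Sqle value was not tested. Of 16 sets of values examined, 8 enzymes at each age, 1 was singled out, and chance singles out about 5% of them. Sqle was called lower at 8 weeks also without that library.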

How the results depend on the processing

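Over the 22 alternatives for age over both sexes, the count of 7 enzymes lower was 7 with the other scalings, filters and tools and 6 with the replicate block, 4 without male 8-week libraries 2 and 3, 4 without both male 4-week libraries and 0 with the muscle score, and 6 to 8 with 1 library left out. Their median was −0.20 with the muscle score and −0.52 to −0.42 with 1 library left out. Of all genes 474 were called without male 8-week libraries 2 and 3, 393 without both male 4-week libraries, 88 with the muscle score and 719 to 1473 with 1 library left out. With the muscle score Pmvk stood at 0.11 and Msmo1 at 0.043, both above 0, and the cause was not tested. Fdft1, not called with all libraries, also went above 0, with 0.08 as its highest estimate over the 22 alternatives. In males the muscle score gave 0 enzymes, a median of −0.23 and 103 genes, and leaving out male 8-week libraries 2 and 3 gave 0 enzymes and 15 genes; with 1 library left out there were 2 to 6 enzymes, a median of −0.50 to −0.34 and 188 to 1199 genes. In females the muscle score gave 0 enzymes, a median of −0.20 and 29 genes, no filter 340 genes, leaving out male 8-week libraries 2 and 3 118, and leaving out the male 4-week libraries 393; with 1 library left out there were 2 to 4 enzymes, a median of −0.56 to −0.35 and 62 to 394 genes. The interaction called 1 gene with limma-voom, 0 without male 8-week libraries 2 and 3 and 1 to 2 with 1 library left out, with a median of the enzymes of −0.06 to 0.15. Sex over both ages called 60 genes with no filter, 35 with DESeq2, 38 with the replicate block, 24 with the muscle score, 9 without the male 4-week libraries and 10 to 28 with 1 library left out. The replicate numbers were not treated as pairs. Of 13 same-numbered pairs, 5 had a correlation of deviations from the group means over 0.1 (−0.21 to 0.24). This cannot decide whether libraries were paired, because differently numbered pairs were not compared and deviations in groups of 2 libraries mirror each other. The replicate block ended the call of Pmvk (edgeR adjusted p = 0.0569) and no other among the 8. Without both male 4-week libraries, age in males and the interaction could not be fitted. Scaling moved the median of all genes to at most 0.02, and all 8 enzymes stayed negative under the 3 other scalings. Idi1, with 45 to 92 counts per library, is limited by depth.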

Other observations

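Isoprenoid branches that leave the pathway at or before farnesyl diphosphate were mostly not called. The 12 genes make longer isoprenoids or attach isoprene units or chains to proteins and other molecules. Of them 1 was lower at 8 weeks and 11 did not pass, with a median log2 fold change of −0.03. Fntb, the beta subunit of protein farnesyltransferase, was called lower at −0.38 (SE 0.06, edgeR adjusted p = 0.00269), and its partner Fnta stood at −0.17 (SE 0.07, edgeR adjusted p = 0.179). Ggps1, which lengthens farnesyl diphosphate, stood at 0.21 (SE 0.09, edgeR adjusted p = 0.204).

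Relatives of the enzymes gave few values. Acat1, the mitochondrial thiolase, had a change of −0.09 (SE 0.06, edgeR adjusted p = 0.424). Idi2, the second isomerase gene, had too few counts to be tested.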
